A study of Mus musculus with 12 samples.

Results

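Stretches of the mouse genome that were over-represented in CTCF HiChIP relative to Hi-C are described here at a resolution of 10 kb bins. A bin was a member if it held at least 20 read ends of CTCF HiChIP and if its share of all CTCF HiChIP ends was at least 2 times its share of the Hi-C ends of the same cell type. Of 246285 autosomal bins, 10500 met this rule in ESC and 10835 in NCC, 1678 of them in both, so that 19657 bins were members in at least 1 cell type. Hi-C records contacts between all parts of the chromatin, and HiChIP enriches such contacts for those bound by a chosen protein by means of an antibody. ESC were mouse embryonic stem cells of the E14Tg2A line grown with leukemia inhibitory factor (LIF). NCC were neural committed cells derived from these ESC in LIF-free medium with 1 μM retinoic acid for 48 h, and both cell types were fixed with formaldehyde. CTCF HiChIP used the antibody ab70303 and FGFR1 HiChIP the antibody ab10646, and Hi-C used none. The 2 biological replicates of each cell type and assay had been merged into 1 library, so that no error between replicates, and no test between groups, can be given. On the autosomes, CTCF HiChIP gave 1737723 read ends in ESC and 1673723 in NCC, and Hi-C 32709333 and 33944651, where each read pair gives 2 ends. Intervals in brackets are 95% Wilson intervals for shares and exact intervals for counts and ratios, and they cover counting error only. RNA was not analysed here, so the cell types were not checked against marker genes.

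CTCF is a zinc finger protein that binds a long, asymmetric DNA motif and insulates neighboring domains of chromatin. In the model of loop extrusion, cohesin reels in DNA and halts at CTCF, and it does so mainly when the motif faces the growing loop. Loops therefore tend to form between convergent motifs, and contacts of a bound site lean to the side that its motif faces. In stem cells and in developing neurons, CTCF is known for its role at the Hox clusters, at imprinted genes and at the clustered protocadherins.

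The CTCF consensus, a motif of 12 bases, was searched on both strands of the reference genome (GRCm38, which is mm10) and was found in 4.70% of all autosomal bins. The sites below lie in member bins that the text returns to, and are shown because their strand is compared with the side of the Hi-C contacts. Capitals mark the consensus, with 9 reference bases on either side, and each sequence reads 5′ to 3′ on the strand of the site. The first and the second belong to a pair of bins that are joined in Hi-C and whose sites face each other. The others lie in a member bin within a cluster of zinc finger genes, next to Utf1, a gene of pluripotent cells, and next to Rpl4, a gene of the ribosome.
Sipa1l3 intron, chr7:29383432-29383461, plus strand: tgcccactaCCAGCAGAGGGCgcatgtgag
Upstream of Sipa1l3, chr7:29523891-29523920, minus strand: ataccgtggCCAGCAGAGGGCagtgaaggc
Near Zfp990, chr4:145548843-145548872, plus strand: gggatagcgCCACCAGGTGGCagcaggtac
Near Utf1, chr7:139949970-139949999, plus strand: ttaagagttCCAGCAGGGGGCttttgacca
Near Rpl4, chr9:64178754-64178783, plus strand: ttatggtagCCACTAGAGGGCctatgatgg
In the GENCODE annotation, the first lies in an intron of Sipa1l3 and the other 4 lie outside protein-coding genes and annotated exons.

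The values used by the rule show what kind of bin it selected. Members were 4.26% of all autosomal bins in ESC and 4.4% in NCC, and they were 43.2% of the bins with at least 20 CTCF HiChIP ends in ESC and 49.2% in NCC. The median member held 26 CTCF HiChIP ends in either cell type, against a median of 4 in all autosomal bins. Bins that held as many CTCF HiChIP ends without being members had nearly the same median, at 26 in ESC and 25 in NCC. What set the members apart from these bins was Hi-C, with a median of 158 ends against 419 in ESC and 156 against 431 in NCC. Members therefore held 18.1% of the CTCF HiChIP ends and 5.28% of the Hi-C ends of ESC, and 18.6% and 5.10% of those of NCC. Among members with Hi-C ends, the ratio of the 2 shares had a median of 2.95 in ESC, with quartiles of 2.38 and 4.13, and a median of 3.12 in NCC, with quartiles of 2.44 and 4.65. At the threshold the members closely resembled their neighbors in rank. In ESC, a bin with 29 CTCF HiChIP ends and 273 Hi-C ends fell just outside and 1 with 39 and 367 just inside, and in NCC the nearest bins had 21 and 213 ends outside and 22 and 223 inside. The counting interval of the ratio lay wholly above 2 for 51.9% of the members of ESC and for 56.8% of those of NCC. This interval treats each read end as independent, although both ends of a read pair can fall in the same bin. It can therefore be too narrow, and these shares too high.

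Part of the members depended on where an anchor was placed. Anchors, the stretches between GATC sites to which read pairs had been assigned, were placed at their midpoint. Their median length was 2213 bp in CTCF HiChIP of ESC and 2886 bp in Hi-C of ESC, and 0.202% of the former but 3.55% of the latter were longer than 10 kb. In ESC, 1232 members (11.7%) held 0 Hi-C ends, and in NCC 1369 (12.6%) did, a count of 0 that allows up to 3 ends. When the ends of an anchor were divided over all bins it overlaps, 1047 of these 1232 bins and 1022 of these 1369 bins did hold Hi-C ends, and 849 and 789 of them held 100 or more. With ends divided in this way in both assays, 6468 (61.6%) of the members of ESC and 6773 (62.5%) of those of NCC met the rule again, 809 of them in both cell types.

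Around the members, the enrichment was narrow. In ESC members the mean number of ESC CTCF HiChIP ends was 4.25 times the autosomal mean in the member bin, 1.70 times in the bin before it and 1.73 times in the bin after it. ESC Hi-C, whose low level is part of the rule, stood at 1.24 times the mean in the member bin and at 1.85 and 1.88 times in the bins beside it. NCC Hi-C, which took no part in choosing these bins, was nearly flat, at 1.66, 1.64 and 1.68 times the mean. NCC CTCF HiChIP, also not used in the choice, was at 2.10 times the mean in the member bin and at 1.55 and 1.56 times beside it. NCC members showed the same order of levels. Their NCC CTCF HiChIP ends were at 4.23 times the mean, and ESC CTCF HiChIP was at 2.10 times in the bin and at 1.53 and 1.52 times beside it. The dip of Hi-C at the member bin was thus seen in the library that chose the bins, and the rise of CTCF HiChIP in both. In the choosing library, the minimum of 20 ends sets part of this rise. The rise in the other library was not particular to members. In ESC non-members with at least 20 CTCF HiChIP ends, NCC CTCF HiChIP was at 2.77 times the mean, and at 1.86 and 1.85 times beside it. In such NCC non-members, ESC CTCF HiChIP was at 3.15 times, and at 2.02 and 2.03 times beside it.

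**Figure D1:**
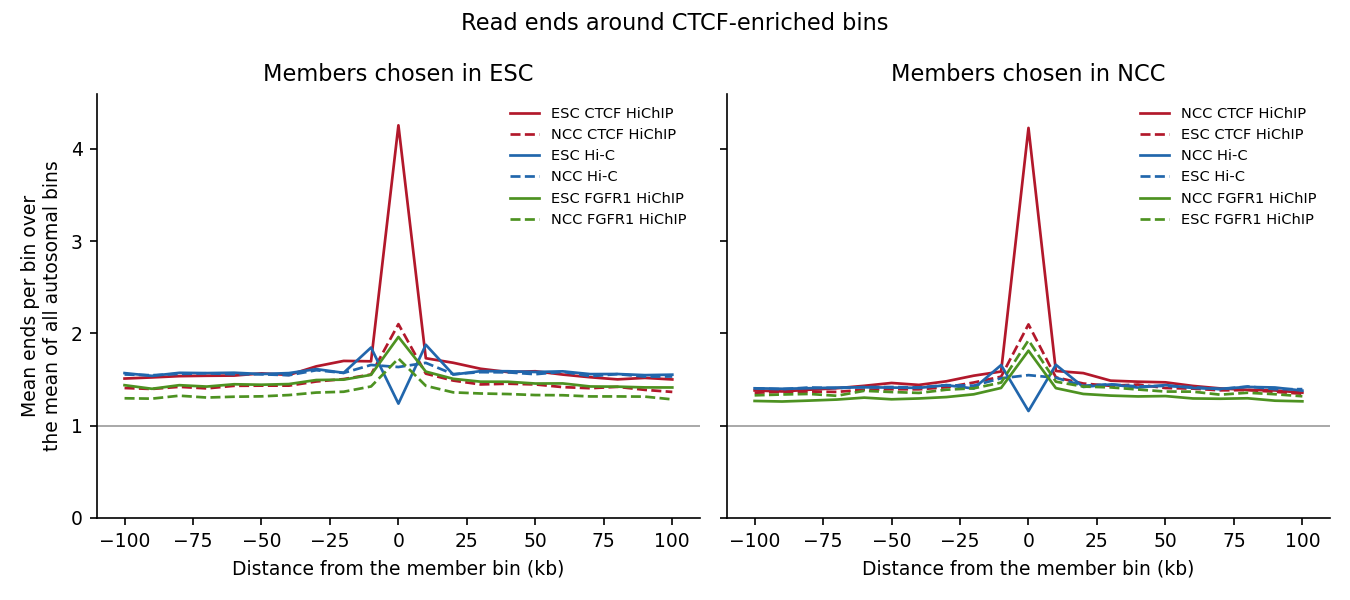
Mean number of read ends per 10 kb bin, over the mean of all autosomal bins, against the distance in kb from the members chosen in ESC (left) and in NCC (right). Solid lines are libraries of the cell type that chose the members and dashed lines those of the other. CTCF HiChIP of the choosing cell type reaches 4.25 and 4.23 at the member, that of the other cell type 2.10 in both panels, and Hi-C dips only in the choosing cell type.

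The question of whether the enrichment follows DNA sequence was addressed with the consensus site. A site was present in 1614 members of either cell type, which is 8.21% (7.84 to 8.60%), against 4.70% (4.62 to 4.78%) of all autosomal bins. Members of both cell types held a site in 11.2% (9.78 to 12.8%) of cases. However, the bins with at least 20 CTCF HiChIP ends that were no members held a site more often than the members did, in 12.5% in ESC against 8.71% and in 13.7% in NCC against 8.20%. Judged by the consensus alone, the name of bins enriched in CTCF therefore goes beyond these data, and over 9 in 10 members held no such site. A looser consensus, CCANNAGNNGGC, occurred in 50.7% of the members and in 37.4% of all bins.

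Because members were chosen to hold few Hi-C ends, bins were also compared within ranges of Hi-C ends. Among ESC bins with 100 to 199 Hi-C ends, 12.8% (11.6 to 14.2%) of those with a consensus site were members, against 8.41% (8.17 to 8.66%) of those without. In the same range of NCC, the shares were 12.7% (11.5 to 14.1%) and 8.06% (7.82 to 8.31%). Bins with 200 to 399 Hi-C ends gave 10.1% against 6.86% in ESC and 9.62% against 7.10% in NCC. In 11 of 12 combinations of range and cell type the share was larger with a site than without, and the exception was the range from 1 to 49 Hi-C ends in ESC, with 0.902% against 1.04%. Bins with a site also differed from those without in base composition. In the range from 100 to 199 ends of ESC their median GC content was 43.8% against 42.4%, and 8.64% against 6.46% of them held a protein-coding start site. The part of these differences in the share of members was not tested.

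**Figure D2:**
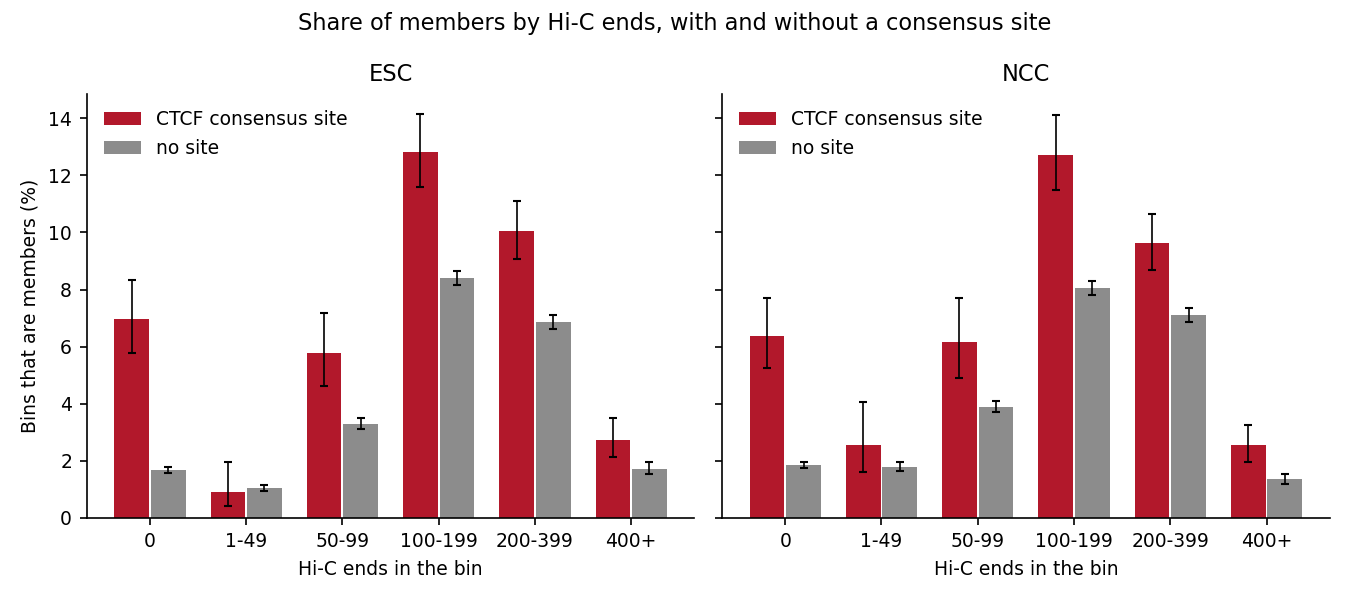
Share of autosomal bins (%) that were members, by the number of Hi-C ends in the bin, for bins with (red) and without (gray) a CTCF consensus site in ESC (left) and NCC (right), with 95% Wilson intervals. The red bar is the taller in each range except that of 1 to 49 ends in ESC, where it is 0.902% against 1.04%.

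Genes and promoters were more frequent in members than in the genome, and less frequent than in the other bins rich in CTCF HiChIP ends. A start site of a protein-coding gene lay in 2498 members (12.7%, interval 12.3 to 13.2%), in 7.55% of all autosomal bins and in 25.4% of the bins with at least 20 CTCF HiChIP ends in either cell type that were no members. Start sites of long non-coding RNAs lay in 5.66%, 3.66% and 8.69% of these bins. A protein-coding gene overlapped 62.3% of the members, 45.8% of all bins and 73.3% of the other bins rich in CTCF HiChIP ends. The median GC content followed the same order, at 43.1%, 41.2% and 47.3%. Bins that were members of both cell types held protein-coding start sites in 17.9% (16.2 to 19.9%) of cases. By chromosome, the share of bins that were members ran from 3.13% on chromosome 14 to 6.73% on chromosome 11 in ESC and from 3.05% on chromosome 7 to 5.84% on chromosomes 11 and 19 in NCC.

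**Figure D3:**
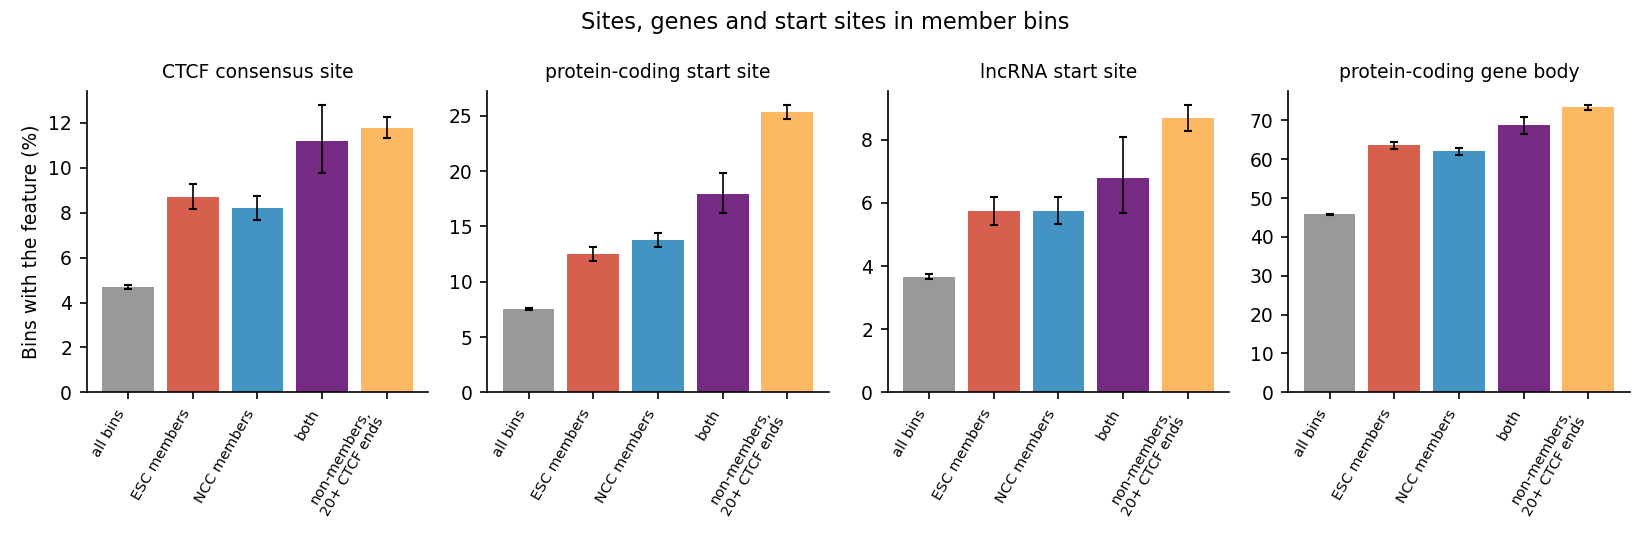
Share of bins (%) that hold a CTCF consensus site, a protein-coding start site, a long non-coding RNA start site or part of a protein-coding gene, with 95% Wilson intervals, for all autosomal bins, members of ESC, of NCC and of both, and bins with at least 20 CTCF HiChIP ends in either cell type that were no members. Each axis starts at 0, and the members lie between all bins and the other bins rich in CTCF HiChIP ends in all 4 panels.

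Few members were shared between the cell types. Of the ESC members, 16.0% (15.3 to 16.7%) were members in NCC, where 4.4% of all bins were, and of the NCC members 15.5% (14.8 to 16.2%) were members in ESC, where 4.26% of all bins were. The minimum of 20 CTCF HiChIP ends was itself met in NCC by 27.2% of the ESC members, and 20.2% of them had 0 ends there. When the minimum was met in NCC, 58.7% (56.9 to 60.5%) of the ESC members were members there, against 22.7% (21.7 to 23.8%) of the ESC non-members that met it in both cell types. The reverse shares were 55.6% and 20.6%. NCC Hi-C was itself lower in ESC members than in ESC non-members with at least 20 CTCF HiChIP ends, at 1.64 and 3.11 times the autosomal mean. For ESC Hi-C in NCC members and such NCC non-members, the levels were 1.55 and 3.21 times. The part of these Hi-C levels in the shares was not tested. Counting a bin as shared also when a bin beside it was a member raised the shares to 28.3% of the ESC members and 27.5% of the NCC members, against 12.1% and 11.7% of all bins. Non-members with at least 20 CTCF HiChIP ends were close behind by this count, at 23.6% in ESC and 25.3% in NCC.

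The ratio itself could be measured in the cell type that had not chosen the members. ESC members had a median NCC ratio of 1.26 with quartiles of 0.516 and 2.39, against a median of 0.877 in ESC non-members with at least 20 CTCF HiChIP ends and 0.946 in all bins with a value. NCC members had a median ESC ratio of 1.32, against 0.974 and 0.939. When only the Hi-C library was exchanged, the CTCF counts were still those that had chosen the bins, which fixes part of the level. With ESC CTCF HiChIP set over NCC Hi-C, the median was 2.84 in ESC members and 1.42 in the non-members with at least 20 CTCF HiChIP ends, and with NCC CTCF HiChIP over ESC Hi-C it was 3.02 in NCC members and 1.38 in such non-members. Over the 8134 bins with at least 20 ends of both assays in both cell types, the log2 ratios of ESC and NCC had a Pearson correlation of 0.50 and a Spearman correlation of 0.49. These bins share their sequence between the cell types, and they are not independent of each other. Their CTCF HiChIP ends all met the same minimum. The part of Hi-C levels common to both cell types in this correlation was not tested.

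FGFR1 HiChIP ends were fewer in members than in non-members with at least 20 CTCF HiChIP ends, with medians of 30 and 43 in ESC and 36 and 46 in NCC. Their ratio over Hi-C was higher in members, but this ratio shares the Hi-C values with the rule. In ESC members the median ratio of FGFR1 HiChIP over Hi-C was 1.497, beside 0.767 in non-members with at least 20 CTCF HiChIP ends and 1.07 in all bins. In NCC the medians were 1.51, 0.653 and 1.15. With the Hi-C library of the other cell type as the denominator, the medians of the members fell to 1.25 in both cell types, beside 0.886 and 1.08 in ESC and 0.723 and 1.14 in NCC. In the bins that met the rule under both placements of anchors, these medians with the other Hi-C library were 1.284 and 1.296. With FGFR1 HiChIP and Hi-C both taken from the cell type that had not chosen the members, the ESC members had a median of 1.11 in NCC, below the 1.15 of all bins, and the NCC members had 1.302 in ESC, above the 1.07 of all bins. Non-members with at least 20 CTCF HiChIP ends had 0.714 and 0.866 by this measure.

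The direction of Hi-C contacts was not used by the rule. For each bin a direction index was formed from the read pairs that reach 20 kb to 2 mb away, as the difference of downstream (larger coordinate) and upstream pairs over their sum, so that 1 means all downstream. Only bins with at least 10 such pairs were used. Among ESC members with consensus sites on 1 strand, the index pointed to the side that the site faces in 532 of 774 bins, or 68.7% (65.4 to 71.9%), and in NCC in 525 of 757, or 69.4% (66.0 to 72.5%). Over all autosomal bins with sites on 1 strand, these shares were 65.7% and 67.1%. The intervals of the members include the share of all bins, and likewise that of non-members with at least 20 CTCF HiChIP ends, at 69.7% in ESC and 70.4% in NCC. Members of both cell types reached 71.5% (64.0 to 78.0%) in ESC and 75.5% (68.2 to 81.6%) in NCC, with 158 and 155 bins. The looser consensus gave 55.4% and 53.7%, near the 53.3% and 53.6% of all bins with sites of this kind on 1 strand. In the CTCF HiChIP libraries themselves, 62.9% of the ESC members and 62.5% of the NCC members followed the site, and in FGFR1 HiChIP 64.9% and 63.0% did. For non-members with at least 20 CTCF HiChIP ends these shares were 61.9% and 65.4% in CTCF HiChIP and 63.8% and 67.2% in FGFR1 HiChIP.

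The size of the lean was alike on both strands. In ESC members, the mean index was 0.133 ± 0.0141 (SE over 387 bins, which are not replicates) for plus strand sites and -0.137 ± 0.0135 (387 bins) for minus strand sites. In NCC members it was 0.140 ± 0.0163 (365 bins) and -0.137 ± 0.0147 (392 bins). In the bin 50 kb before a plus strand member the mean index was -0.0439 in ESC and -0.0633 in NCC, so that contacts turned from upstream to downstream at the site. To measure this turn without reference to the strand, the mean index of the 5 bins before a bin was subtracted from that of the 5 bins after it. The mean change was 0.103 in ESC members with a site and -0.0120 in ESC members without, and 0.147 and -0.00817 in NCC members. Non-members with at least 20 CTCF HiChIP ends and a site had changes of 0.0796 in ESC and 0.102 in NCC, all autosomal bins with a site 0.0780 and 0.0949, and all autosomal bins -0.0176 and -0.0165. A positive change thus went with the site in all of these groups, and it was larger in members with a site than in all bins with a site. The sides were mostly kept between the cell types. The index had the same sign in ESC and NCC in 79.1% of the ESC members, 79.0% of the NCC members and 76.9% of all bins, and in 85.5% (84.5 to 86.5%) of the non-members with at least 20 CTCF HiChIP ends in both. The index rests on a median of 87 read pairs in ESC members and 84 in NCC members. In non-members with at least 20 CTCF HiChIP ends the medians were 222 in ESC and 224 in NCC. The part of this depth in the shares was not tested.

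**Figure D4:**
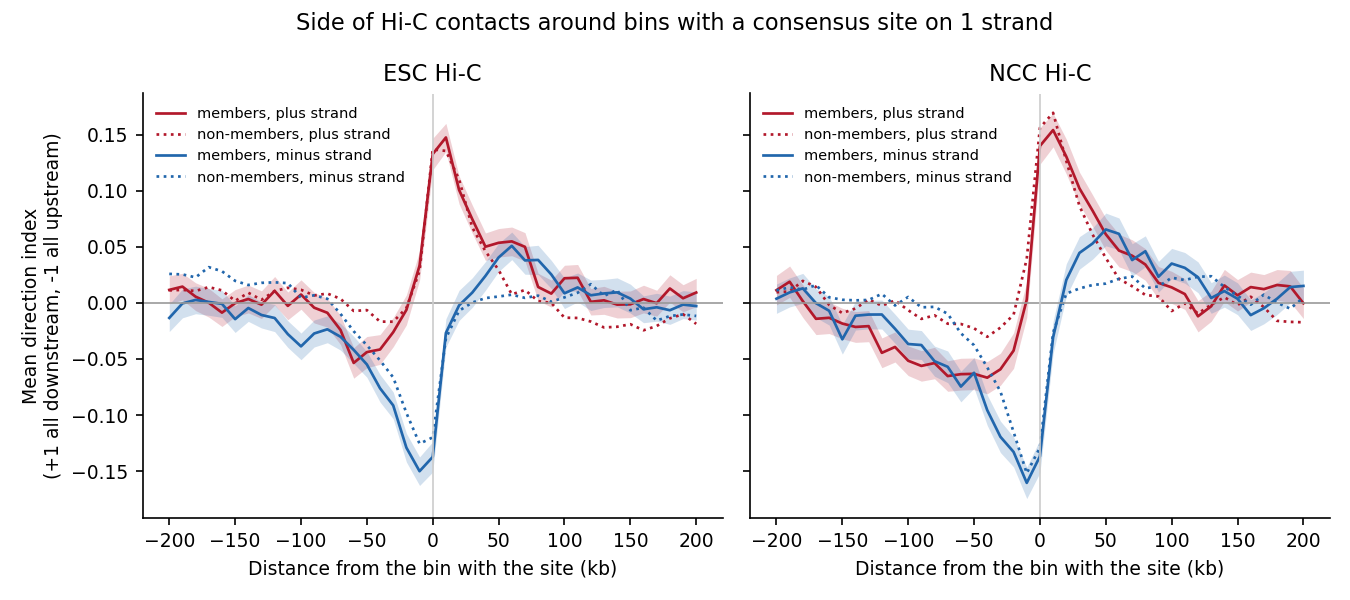
Mean direction index of Hi-C contacts (1 is all downstream, -1 all upstream) against the distance in kb from bins with consensus sites on the plus (red) or the minus strand (blue), for members (solid, with a band of 1 SE over bins) and for non-members with at least 20 CTCF HiChIP ends (dotted). At the member bin the index stands at 0.133 and -0.137 in ESC (left) and at 0.140 and -0.137 in NCC (right), and it has the opposite sign 50 kb behind the site.

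Contacts between members were compared by the orientation of their sites. Between 100 kb and 400 kb, ESC Hi-C had 40 read pairs in 54 convergent pairs of member bins and 34 in 47 divergent pairs, a ratio per pair of 1.02 (0.632 to 1.67). The single convergent pair with the most reads held 8 of the 40 and the single divergent one 10 of the 34, and without the first the ratio was 0.835 and without the second 1.42. NCC Hi-C had 69 read pairs in 36 convergent pairs and 22 in 38 divergent pairs, a ratio of 3.31 (2.02 to 5.62). Of the 69, 17 came from the pair at Sipa1l3 shown above, without which the ratio was 2.57. It was 2.17 (0.914 to 5.69) for members by both placements of anchors and 1.12 (0.129 to 13.5) for a threshold of 3 times. For a minimum of 40 CTCF HiChIP ends it was 2 (0.397 to 9.29), from 7 pairs of bins. All autosomal bins with sites on 1 strand gave ratios of 2.07 (2.01 to 2.14) in ESC and 2.29 (2.21 to 2.36) in NCC. The interval of the ESC members lay below the genome-wide ratio and that of the NCC members included it, each with few pairs. With bins shifted by 5 kb, the ratio of the ESC members was 2.67, so that the placement of the bins decided its side. With the looser consensus, the members gave 1.45 (1.28 to 1.64) in ESC and 1.40 (1.23 to 1.60) in NCC, close to the 1.37 and 1.39 of all bins with at least 20 CTCF HiChIP ends and above the 1.24 and 1.26 of all bins.

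Of 373844 pairs of members 100 kb to 2 mb apart, 20.8% were joined by at least 1 Hi-C read pair in ESC or NCC, and the 5 pairs with the most were looked at by name. The pair on chromosome 7 joins an intron of Sipa1l3, a gene of a GTPase-activating protein, to a bin upstream of its start, with 40 read pairs in ESC and 17 in NCC. Both bins were members in NCC. Their CTCF HiChIP ends were 39 in ESC and 32 in NCC for the first bin and 17 and 39 for the second. Their sites converge, and their direction indices were 0.31 and -0.68 in ESC and 0.24 and -0.76 in NCC, so that the contacts of each leaned toward the other. A pair 110 kb apart on chromosome 5, within Agfg2 and Tsc22d4, was chosen in ESC and had 22 read pairs in ESC and 40 in NCC. The bins held 72 and 69 CTCF HiChIP ends in ESC and 60 and 36 in NCC, and the first has sites on both strands. With divided ends their ESC ratios were 1.61 and 2.09, so that the first was no member. A pair on chromosome 16, within Adgrg7, an adhesion receptor gene, and Lnp1, had 20 read pairs in ESC and 38 in NCC. CTCF HiChIP ran the other way there, with 28 and 48 ends in ESC and 8 and 0 in NCC, and neither bin has a consensus site. With divided ends the ESC ratios of these bins were 1.65 and 3.58, and the bin in Adgrg7 was no member. The other 2 pairs lie on chromosome 4, between 145400001 and 147340000, and one of them spans 1790 kb. They had 44 and 33 read pairs in ESC and 27 and 21 in NCC. Their bins met the rule with divided ends too, in the cell type that had chosen them. The bin with the plus strand site near Zfp990, shown above, had indices of 0.22 in ESC and 0.19 in NCC, on the side that its site faces. This region holds zinc finger genes with near-identical copies, such as Zfp990 and Zfp978, among which reads may not be told apart.

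Members shared fewer Hi-C contacts per pair of bins than other bins rich in CTCF HiChIP ends did. Between 100 kb and 200 kb, 100 pairs of ESC members shared 79.3 Hi-C read pairs (77.4 to 81.3), against 472 (470 to 475) for the ESC non-members with at least 20 CTCF HiChIP ends, which hold more Hi-C ends. Divided by the product of the Hi-C ends of both bins, the order was the reverse, at 2.43e-05 and 1.54e-05. In NCC, the values were 76.7 and 485 read pairs per 100 pairs of bins, and 2.58e-05 and 1.51e-05 after this division. The rule chose members for few Hi-C ends in the same libraries, which fixes part of both orders. They are therefore descriptions and not separate evidence about the members.

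Among the 10 members of both cell types with the largest ratios, only that at Tti1 and Rprd1b and that at Plscr5 held protein-coding start sites. The bin at Tti1, a partner of the kinases of the mTOR family, and Rprd1b, a regulator of RNA polymerase II, held 48 CTCF HiChIP and 67 Hi-C ends in ESC (ratio 13.5, interval 9.11 to 19.8) and 33 and 64 in NCC (ratio 10.5, interval 6.65 to 16.2). It held 0 FGFR1 HiChIP ends in either cell type. It met the rule under both placements of anchors, but with divided ends its ratios were 3.01 and 3.29. The bin at Plscr5 had ratios of 10.1 and 11.8. It met the rule with divided ends only in NCC. The largest ratio was that of a bin within Heca, with 21 CTCF HiChIP ends over 26 Hi-C ends in ESC (ratio 15.2) and 39 over 31 in NCC (ratio 25.5). With divided ends its ratios fell to 4.36 and 7.18, and it was a member in NCC alone. Another 6 of the 10 bins lay nearest to Zfp131, Sgo2b, Dsg4, Slc22a21, Mroh9 and Cep152, and of these only the bin near Dsg4, on chromosome 18, holds a consensus site.

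Bins that set the cell types most apart were those with CTCF HiChIP ends, placed by anchor midpoint, in only 1 of them. A bin in Foxp4, on chromosome 17, held 40 ends in ESC and 0 in NCC, although NCC Hi-C had 1287 ends there. Others chosen in ESC were a bin in Kif5c, a motor gene of axonal transport, with 45 ends and 0, a bin in Adamts5 with 24 and 0, a bin in Dnah8 with 68 and 0 and a bin 51.2 kb from the start of Cav2 with 21 and 0. In NCC, a bin in Aff3 held 33 ends and 0 in ESC, with 937 ESC Hi-C ends, and a bin 94.99 kb from the start of Atxn1, a gene of neurons, held 47 and 0. Bins at Spata3, Slc25a48 and Cecr2, the last a chromatin remodeling gene of neural tube closure, held 30, 20 and 22 ends in NCC and 0 in ESC. By counting error alone each 0 allows up to 3 ends, but it also depends on the placement of anchors. Once ends were divided, the ratio in the cell type of the 0 was 0.203 for Kif5c and 0.430 for Adamts5. It was 0.694 for Spata3 and 0.373 for Cecr2, and it stayed 0 for the others. With divided ends, 4 of these 10 bins were members again, namely those of Kif5c, Adamts5, Dnah8 and Atxn1. These bins were picked for their difference, and it has no replicate check. None of the 10 holds a consensus site.

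Genes were grouped by lists, and a gene counted as a member if its start site lay in a member bin. Over all 20807 protein-coding genes this held for 7.23% in ESC and 8.23% in NCC, and for 2857 genes (13.7%) in either. The clustered protocadherins, cell surface genes that give neurons their identity and whose promoters are known CTCF targets, had the largest share of the 9 lists, with 12 of 57 genes in ESC and 12 of 57 in NCC, 20 in either and 4 in both. Neighboring genes can share a bin, and the 57 genes lie in 40 bins. Over all 57 genes the ratio had a median of 1.28 for ESC and of 1.24 for NCC, where all protein-coding genes had medians of 0.918 and 0.910, and 23 of them lay in a bin with a consensus site. The bin of Pcdha5 and Pcdha6 held 36 CTCF HiChIP ends over 257 Hi-C ends in ESC (ratio 2.64) and 33 over 305 in NCC (ratio 2.19), with a plus strand site and indices of 0.29 and 0.38, on the side that the site faces. The bin of Pcdhb3 and Pcdhb4 held 34 and 23 ends, with ratios of 4.44 and 3.13. Its sites are on the minus strand while its indices, 0.26 and 0.27, pointed downstream. Member bins of this list without a site leaned downstream too, such as those of Pcdhb11 (0.49 and 0.27) and Pcdhga1 (0.28 and 0.35). The exception was the bin of Pcdhac1 in ESC (-0.23). The part of the site in the lean of the Pcdha5 and Pcdha6 bin was not tested. Pcdha12 was a member in NCC with a ratio of 4.92, and had 1.76 in ESC.

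Hox genes, which pattern the body axis, were members in 6 of 39 cases in ESC and 8 of 39 in NCC, 10 in either and 4 in both. These were 15.4% in ESC and 20.5% in NCC, beside 7.23% and 8.23% of all protein-coding genes. The 39 genes lie in 31 bins. At least 20 CTCF HiChIP ends lay in the bins of 22 of the 39 genes in ESC and 21 in NCC, beside 5869 and 5456 of all 20807 genes, while their median ratio, 0.721 and 0.818, was below that of all genes. None of their bins holds a consensus site, while the authors report CTCF binding within the HoxA cluster by ChIP-qPCR. The bin of Hoxd13 held 29 ends over 100 Hi-C ends in ESC (ratio 5.46) and 24 over 167 in NCC (ratio 2.92), and that of Hoxd3 and Hoxd4 33 over 156 (ratio 3.98) and 20 over 170 (ratio 2.39). Hoxd1 was a member only in ESC, with 31 ends and 0 in NCC. Hoxb6 had 14 ends in ESC and 28 in NCC, with ratios of 0.33 and 2.39. Hoxd11 and Hoxd12 share a bin with ratios of 1.13 and 2.06. Hoxc11, with 40 and 25 ends, was a member in both cell types over 0 Hi-C ends. Hoxc9 was a member in ESC, with 20 ends over 0 Hi-C ends, and not in NCC, with 19 over 673 (ratio 0.573). With divided ends neither was a member, and Hoxd13 was none either, with ratios of 1.71 and 1.86.

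Of the pluripotency genes, 1 of 29 was a member in ESC (3.45%) and 4 were in NCC (13.8%). All protein-coding genes stood at 7.23% and 8.23%. Klf4 had 26 CTCF HiChIP ends and a ratio of 2.09 in ESC, against 10 and 0.89 in NCC. Sox2 had 11 ends and a ratio of 0.47 in ESC and 30 ends and 2.57 in NCC, over 441 and 237 Hi-C ends. Klf5 had 0 ends in ESC and 27 in NCC, Dppa5a 30 and 39 with ratios of 1.07 and 3.30, and Utf1, next to the plus strand site shown above, 5 and 45 with ratios of 0.80 and 2.68. The contacts of the Utf1 bin leaned downstream, with indices of 0.30 and 0.11. With divided ends Klf4, Sox2 and Dppa5a kept their calls, while the NCC ratio fell to 1.24 for Utf1 and 1.73 for Klf5, and neither was a member. Among the retinoic acid and neural induction genes, 2 of 32 were members in ESC (6.25%) and 3 in NCC (9.38%). These shares are near those of all protein-coding genes. Stra8, which retinoic acid induces, was a member in both, with 72 ends and a ratio of 2.88 in ESC and 87 ends and 3.04 in NCC, under either placement of anchors. Pbx2, a Hox cofactor, had 0 ends in ESC and 35 in NCC, Nr2f1 16 and 21, and Pax3 57 and 19, the latter over 0 Hi-C ends. With divided ends the NCC ratio of Pbx2 was 0.947, and neither Pbx2 nor Nr2f1 was a member.

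Imprinted genes gave 3 of 31 in ESC (9.68%) and 1 in NCC (3.23%), beside 7.23% and 8.23% of all protein-coding genes. The bin of Igf2, a growth factor gene of the domain in which CTCF acts as an enhancer blocker, held 49 CTCF HiChIP ends over 219 Hi-C ends in ESC (ratio 4.21) and 0 over 268 in NCC. Its contacts leaned upstream in both, with indices of -0.78 and -0.83. It did not meet the rule with divided ends. Zdbf2 was a member in both, with ratios of 2.19 and 2.46, and Meg3 in ESC, with 2.12 or, with divided ends, 1.42. In the list of CTCF and cohesin machinery, 1 of 18 genes was a member in ESC (5.56%) and 2 were in NCC (11.1%). These shares are near the 7.23% and 8.23% of all protein-coding genes. Stag1, a cohesin subunit, was the member in ESC, with 37 ends and 0 in NCC. Nipbl, the loader of cohesin, and Esco2, an acetyltransferase of cohesin, were members in NCC with 33 and 31 ends, against 17 and 23 in ESC. Of 17 genes of FGF receptors and ligands, only Fgfr1 was a member, in ESC and close to the threshold, with 42 ends and a ratio of 2.01 (1.39 with divided ends), against 0 ends in NCC. None of the 10 globin genes was a member, and 0 of them in ESC and 1 in NCC reached 20 CTCF HiChIP ends. A list of 10 genes is too short to set this apart from the shares of all protein-coding genes.

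Ribosomal protein genes, which are active in all cells, were members in 7 of 71 cases in ESC and 10 in NCC, 12 in either and 5 in both. These were 9.86% in ESC, 14.1% in NCC and 16.9% in either. The shares of all protein-coding genes were 7.23%, 8.23% and 13.7%. Rps12 had the largest ratios in both cell types among the listed genes in member bins with Hi-C ends, with 59 CTCF HiChIP ends over 106 Hi-C ends in ESC (ratio 10.5) and 25 over 99 in NCC (ratio 5.12). FGFR1 HiChIP over Hi-C was also high there, at 5.90 and 4.04, but this ratio has the same Hi-C ends as its denominator. With divided ends the ratios of Rps12 fell to 2.59 and 1.92, so that it was no member in NCC, and Pcdhb3 in ESC and Pcdha12 in NCC had larger ones, at 4.44 and 5.07. Rpl5 had a ratio of 4.61 in ESC and 2.79 in NCC, or 3.56 and 1.79 with divided ends. The bin of Rpl4, with the plus strand site shown above, had 71 ends in ESC (ratio 2.49) and 66 in NCC (ratio 2.32), met the rule under either placement, and had indices of 0.31 and 0.07. Rpl22 and Rpl29 were members in both cell types over 0 Hi-C ends and not with divided ends. Processed copies of ribosomal protein genes elsewhere in the genome may share reads with them.

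**Figure D5:**
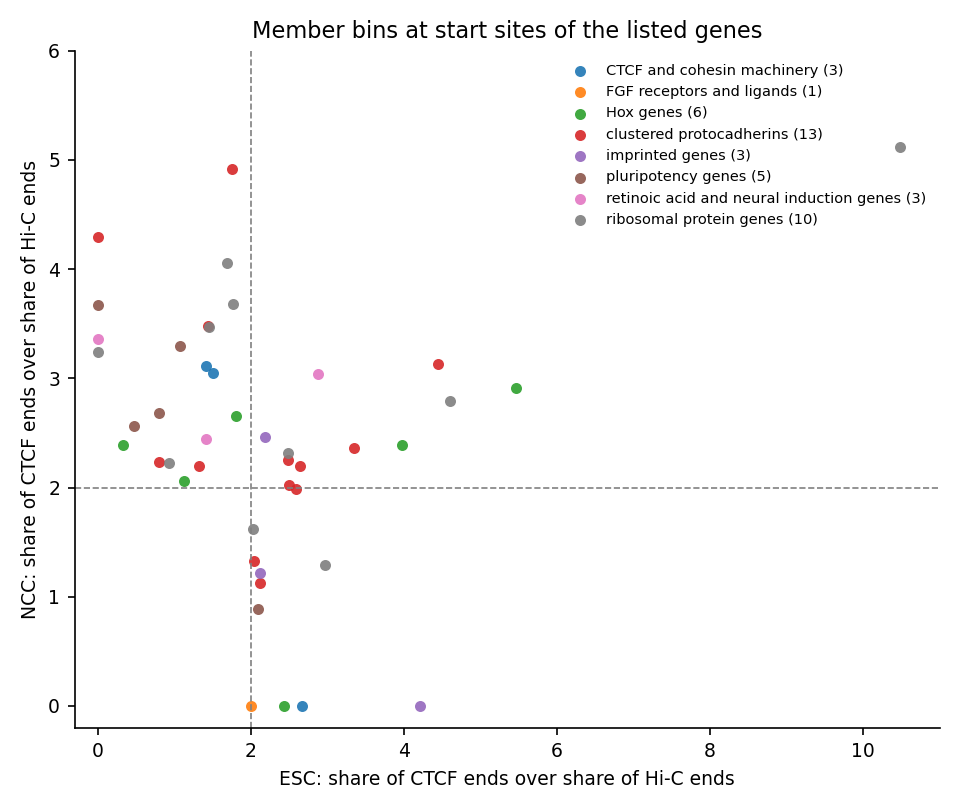
Ratio of the share of CTCF HiChIP ends to the share of Hi-C ends in ESC (horizontal) and NCC (vertical) for 44 member bins at the start sites of listed genes, with the number of bins per list in the legend and the threshold of 2 as dashed lines. Another 6 bins have 0 Hi-C ends in a cell type and no ratio. The bin of Rps12 lies farthest to the right at 10.5, and few bins lie above both lines.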

How the data were processed

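Hi-C, CTCF HiChIP and FGFR1 HiChIP were done by the authors in ESC and NCC. The authors aligned reads to mm10 with HiC-Pro and assigned valid pairs to anchors with hichipper (default settings, anchors from all reads, no filter on q). Versions are not given in the sources used here. Each score, as deposited, counts the read pairs that connect 1 anchor with another (counts), merged over 2 biological replicates. The authors report normalizing the number of valid pairs between ESC and NCC. Whether the deposited scores include that step was not checked. On chromosomes 1 to 19 and X, the ESC libraries had 1218098 (CTCF HiChIP), 2662606 (FGFR1 HiChIP) and 20745652 (Hi-C) read pairs and the NCC libraries 1056437, 3203872 and 21228099, at least 99.1% of each.

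Pairs inside 1 anchor, from 17.4% to 28.4% of a library, were left out. Ends were summed over 10 kb bins by anchor midpoint, and shares are of autosomal ends. All anchors begin and end at GATC sites of GRCm38. Consensus sites came from the RefSeq sequence of GRCm38, and genes from GENCODE release M21. Scripts used Python 3.11.15, numpy 2.4.6, pandas 2.3.3 and scipy 1.17.1, and were tested on simulated data. Members and gene lists were chosen with earlier results of these data known. Named were the 10 members of both cell types with the largest smaller ratio and at least 20 Hi-C ends in each, the 5 members per cell type that differed most from the other cell type, listed genes that start in members, and the 5 member pairs with the most Hi-C read pairs, except that some of these are not reported here. No test was run, since there is 1 library per cell type and assay. The X chromosome took no part in the choice of members.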

Additional observations from a re-analysis of the deposited data

Results flagged for a closer look

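The X chromosome was outside the rule, and its bins were set against the same criterion with shares of the autosomal ends. Of 17104 bins, 5 met it in ESC and 7 in NCC, which were all X bins with at least 20 CTCF HiChIP ends. The chromosome held 7033 CTCF HiChIP ends and 120643 Hi-C ends in ESC, and 7777 and 100857 in NCC. The sparse coverage of this chromosome was not examined.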

How the results depend on the processing

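Alternatives changed 55 of 98 recomputed values by more than counting error or 1.5 times, and reversed none. A threshold of 3 times left 5707 members in ESC, 6470 in NCC and 629 in both. Of these, 7.27% held a site and 9.79% a start site, the median FGFR1 ratios were 2.09 in ESC and 2.199 in NCC, the medians in the other cell type were 1.38 for ESC members and 1.39 for NCC members, and the convergent over divergent ratio of NCC was 1.12, with none to be had in ESC. A minimum of 40 CTCF HiChIP ends left 1517, 1162 and 175 members. Sites rose to 14.4% and start sites to 25.4%, the index followed the site in 74.9% of ESC and 73.0% of NCC members, the FGFR1 medians were 1.29 and 1.13, and the ESC ratio of NCC members was 1.38. The convergent ratio was 2 in each, with wide intervals of 0.381 to 19.7 in ESC and 0.397 to 9.29 in NCC. Bins shifted by 5 kb gave 65.5% for direction in NCC, a convergent ratio of 2.67 in ESC and a median ESC ratio of NCC members of 1.35. Ends divided over the overlapped bins gave FGFR1 medians of 1.305 and 1.336. With pairs inside 1 anchor kept there were 19195, 17483 and 3530 members, 6.82% with a site and 10.3% with a start site, FGFR1 medians of 1.64 and 1.66, and medians in the other cell type of 1.32 and 1.37. Without pairs under 20 kb there were 5854, 5801 and 811 members, 10.3% with a site and 16.6% with a start site, and FGFR1 medians of 1.43 and 1.39. Requiring 20 Hi-C ends gave FGFR1 medians of 1.36 and 1.36. The looser consensus gave sites in 50.7% of members, direction shares of 55.4% in ESC and 53.7% in NCC, and a convergent ratio of 1.40 in NCC. Members by both placements of anchors, an alternative added after seeing the data, numbered 6468, 6773 and 809, with FGFR1 medians of 1.42 and 1.46 and an ESC ratio of NCC members of 1.355. The cause of these shifts was not tested.

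The convergent over divergent ratio of ESC members, from 1.02 in the report to 2.67 with shifted bins, rests on 40 convergent and 34 divergent read pairs. At a median of 26 CTCF HiChIP ends per member, a ratio near 2 cannot be placed above or below the threshold. No paired analysis was possible because the replicates of each library had been merged.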
